A study of Arabidopsis thaliana with 18 samples.

Results

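The 10 genes described here encode the Arabidopsis PAF1 complex and the phosphatases of the C-terminal domain (CTD) of RNA polymerase II (Pol II). They were chosen by name and not by any measured value, though with earlier results of these data known. They are 10 of the 25016 nuclear genes listed in any table, with 96 of the 121244 nuclear introns. PAF1 complex genes were VIP3 (AT4G29830), VIP4 (AT5G61150), VIP5 (AT1G61040), VIP6 (AT2G06210), ELF7 (AT1G79730) and CDC73 (AT3G22590). CTD phosphatase genes were CPL1 (AT4G21670), CPL2 (AT5G01270), CPL3 (AT2G33540) and CPL4 (AT5G58003).

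All material was 14-day-old seedlings, from wild-type Col-0 plants or the xrn3 mutant, which carries a lesion in the nuclear exoribonuclease XRN3. The allele, xrn3-3, is not the strongest one known, which limits the mutant as a model of XRN3 loss. Nascent RNA held by Pol II phosphorylated at serine 2 of the CTD (Ser2P) was sequenced by pNET-seq in untreated Col-0, xrn3, and Col-0 given either the solvent DMSO or herboxidiene, an inhibitor of spliceosome assembly, with 2 libraries a condition. Chromatin-bound RNA (CB-RNA-seq) was sequenced from Col-0 and xrn3, again with 2 libraries each, and total RNA from Col-0 seedlings after DMSO or herboxidiene, with 3 libraries each. Seedlings given DMSO or herboxidiene were immersed in the solution with brief vacuum, a step not described for untreated seedlings. Each table pools the libraries of a condition. The Fisher's exact tests below therefore compare pooled libraries, not conditions, have no replicate check, and their intervals cover counting error only.

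The PAF1 complex travels with elongating Pol II and promotes ubiquitination of histone H2B and methylation of histone H3. In Arabidopsis it is known for keeping floral repressors such as FLC active, and its mutants flower early. The CTD carries repeats whose serines are phosphorylated and dephosphorylated as Pol II moves along a gene. CPL proteins remove such phosphates, and Ser2P, the form captured here, builds up toward gene 3' ends.

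The pNET-seq tables held between 3671597 (herboxidiene) and 25790239 (libraries labelled xrn3) gene body reads over 12663 to 19251 nuclear genes. XRN3 itself had 302 gene body reads in Col-0, 84 in DMSO, 215 in herboxidiene and 9931 in the libraries labelled xrn3, a scaled log2 rise of 4.04 against Col-0, while its exonic reads on chromatin numbered 8055 (Col-0) and 6925 (xrn3). The label was therefore not checked by a loss of XRN3 reads. RBCS1A and RCA, genes of green tissue, were listed in all 4 pNET-seq tables. Their scaled gene body reads moved between pools. The log2 change of RCA was 1.25 from Col-0 to the libraries labelled xrn3, -1.67 from Col-0 to DMSO and -1.27 from DMSO to herboxidiene, and that of RBCS1A was 0.08, -1.10 and -0.60. The part of these shifts in the results was not tested.

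Pausing was measured as the 3' end pause index (3'PI), the read density of the highest 50-bp window around the polyadenylation site (PAS) divided by that of the gene body. A gene is listed for a condition only if this window was significantly denser than its gene body and its abundance, as TPM (reads per transcript length, scaled to the library), reached the minimum, so an unlisted gene missed at least 1 of these. All 10 genes were listed both for Col-0 and for xrn3, and 9 in each of the other tables. CDC73 was not listed in DMSO and VIP6 was not listed in herboxidiene.

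In untreated Col-0 the 3'PI of the 10 genes ranged from 11.1 to 81.6 with a median of 23.9, beside a median of 15.9 over all listed genes. VIP4, the Leo1 homologue on chromosome 5 (24603656 to 24607725, TAIR10, minus strand, 10 introns), had the highest value at 81.6 (exact 95% interval 68.0 to 98.0), from 250 reads in the window and 231 in the gene body. CPL4, an FCP1-like phosphatase on chromosome 5 (23479804 to 23482048, plus strand, 7 introns), followed at 75.3 (59.6 to 95.7), and the interval overlapped that of VIP4. VIP3, a WD-repeat protein of chromosome 4 (14597661 to 14599300, plus strand), was at 52.0 (39.6 to 68.7) although it has a single intron. The median 3'PI of the 2258 listed genes with as many exons was 7.77. Against the median of its own exon class, 5 of the 10 genes lay above (VIP3, VIP4, VIP5, CDC73 and CPL4) and 5 below. Those below in Col-0 were VIP6 (29.0 against 50.5), CPL1 (16.1 against 40.7), CPL2 (20.5 against 37.8), CPL3 (19.5 against 31.6) and ELF7 (25.9 against 31.6).

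The other 7 genes lay lower and largely overlapped their neighbours in rank. VIP6, the Ctr9 homologue on chromosome 2 (2428903 to 2436687, minus strand), has 23 introns, the most of the set, and had a 3'PI of 29.0 (19.1 to 42.8). ELF7, the Paf1 homologue on chromosome 1 (30000538 to 30004005, minus strand, 11 introns), was at 25.9 (21.8 to 30.5). VIP5, the Rtf1 homologue on chromosome 1 (22483207 to 22485969, plus strand, 1 intron), was at 22.0 (18.0 to 26.7). These 3 intervals overlapped one another. CPL2, a phosphatase that acts on serine 5 (chromosome 5, 107646 to 112311, minus strand, 14 introns), was at 20.5 (16.9 to 24.8). CPL3, which represses stress and defence genes (chromosome 2, 14203505 to 14208797, minus strand, 11 introns), was at 19.5 (16.7 to 22.7). CPL1, known from stress signalling (chromosome 4, 11511115 to 11517396, plus strand, 16 introns), was at 16.1 (13.0 to 19.7). The CPL1, CPL2 and CPL3 intervals overlapped. CDC73, the homologue of human parafibromin (chromosome 3, 8003934 to 8005579, plus strand, 2 introns), had the lowest value at 11.1 (8.10 to 15). Its window was centred 180.5 bp past the PAS used here, while the annotated CDC73 transcript end lies 323 bp past it. This value was therefore measured within the annotated transcript.

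**Figure D1:**
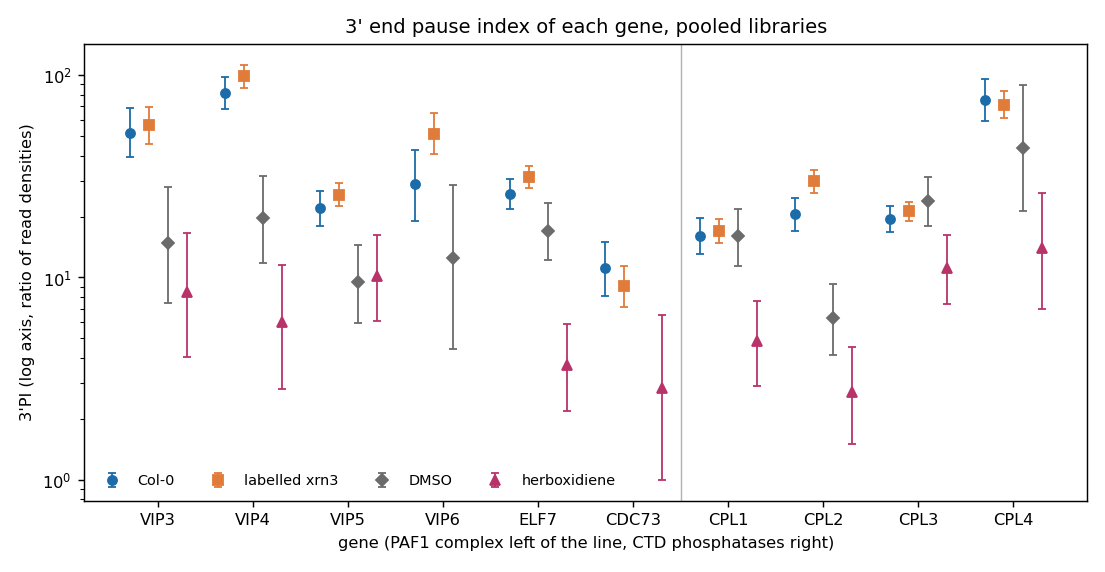
The 3'PI of each gene on a log axis in the 4 pNET-seq conditions, with exact 95% intervals for counting error of the pooled reads; a missing point means that the gene was not listed. Values in herboxidiene (triangles) lie below those in DMSO (diamonds) for every gene listed in both except VIP5, at 9.49 in DMSO and 10.1 in herboxidiene.

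The comparison of xrn3 with Col-0 asks whether the 3' end signal depends on XRN3, which degrades RNA after cleavage at the PAS. Only CPL2 changed among the 10 genes, beside 14.9% of the 17714 genes tested, 11.3% higher and 3.66% lower. Its index of 20.5 in untreated Col-0 stood against 29.9 in the libraries labelled xrn3, a 1.46-fold rise (log2 0.54 ± 0.17 SE, adjusted p = 0.0128, Fisher's exact test, with Benjamini-Hochberg control over every gene tested). The call was lost with a minimum of 1.5-fold. VIP6 had the largest difference, 29.0 against 51.4 (log2 0.83 ± 0.33 SE), and did not pass the test (adjusted p = 0.0669, Fisher's exact test). For CPL1 the values were 16.1 and 17.0, and for CPL4 75.3 and 71.4, so both pairs lay within their counting intervals. The value was higher in the libraries labelled xrn3 at 8 of the 10 genes, beside 67.2% of all genes, with a median log2 change of 0.18 beside 0.16 over all genes. Gene body reads, scaled to the total over genes listed in both tables, passed 1.5-fold for 0 of the 10, beside 10.2% of genes higher and 4.69% lower.

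The comparison of herboxidiene with DMSO asks whether pausing depends on splicing. Of the 8 genes listed in both tables, ELF7, CPL1, VIP4 and CPL3 fell, 4 of 8 beside 17.9% called and 16.6% lower among the 11590 genes tested, and 0 rose, beside 1.31%. The median log2 change over the 8 was -1.42, against -0.39 over all genes. These shares and medians were not matched for exon number. Listed genes with as many exons as ELF7 and CPL3 had a median 3'PI of 15.04 in DMSO and 7.35 in herboxidiene. For the exon class of VIP4 it was 14.9 and 7.48, and for that of CPL1 18.46 and 6.815. For CPL2 it was 18.3 and 8.06, and for CPL4 13.8 and 8.475. The class of VIP3 and VIP5 is given below. The part of exon number in the fall was not tested.

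ELF7 fell most. Its 3'PI was 17.0 in DMSO and 3.69 in herboxidiene, 4.61-fold lower (log2 -2.20 ± 0.41 SE, adjusted p = 6.45e-07, Fisher's exact test). Window reads went from 51 to 19 while gene body reads went from 190 to 326, so both terms of the index moved. CPL1 went from 15.9 to 4.87, 3.28-fold lower (adjusted p = 0.000256, Fisher's exact test). The CPL1 window was centred 165.5 bp past the PAS in DMSO and 160.5 bp in herboxidiene, against 75.5 bp in untreated Col-0. NRT1.8, which overlaps the CPL1 end on the opposite strand, had 53 gene body reads in Col-0, 3224 in DMSO and 2099 in herboxidiene. Whether NRT1.8 reads enter the CPL1 windows was not tested. VIP4 went from 19.8 to 6.03, 3.27-fold lower (adjusted p = 0.0241, Fisher's exact test), and rested on 22 and 10 window reads. CPL3 kept the highest index of the 4 after treatment. It went from 23.9 to 11.1, 2.15-fold lower (adjusted p = 0.00812, Fisher's exact test).

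The remaining genes did not pass the test. CPL4 had 43.5 and 14.0 (log2 -1.64 ± 0.66 SE, adjusted p = 0.0727, Fisher's exact test), from 19 and 14 window reads. CPL2 had 6.30 and 2.72 (log2 -1.21 ± 0.47 SE, adjusted p = 0.0603, Fisher's exact test). Both differences were as large as that of CPL3, at fewer window reads. VIP3 had 14.8 and 8.46 (log2 -0.80 ± 0.66 SE, adjusted p = 0.569, Fisher's exact test). VIP5 was the one gene with no lower value, 9.49 and 10.1 (log2 0.09 ± 0.46 SE). The median of listed genes with 2 exons, as in VIP3 and VIP5, was not lower either, at 6.43 in DMSO and 6.77 in herboxidiene. VIP6 had 12.5 in DMSO only, from 6 window reads, and CDC73 2.83 in herboxidiene only, also from 6.

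VIP5 is shown by sequence because it alone was not lower after herboxidiene and because its windows lie past the annotated gene end, with the next gene 688 bp away. The 4 windows span chr1:22486010-22486079 of the plus strand, read from the RefSeq TAIR10.1 genome, whose nuclear introns matched the deposited coordinates at their splice sites (98.8% began with GT and ended with AG).
VIP5 windows: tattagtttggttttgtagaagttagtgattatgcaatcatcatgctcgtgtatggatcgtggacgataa
Thymine made up 38.6% of these 70 bases.

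The DMSO and untreated Col-0 pools also differed, and they share the Col-0 table with the xrn3 comparison. Only the DMSO seedlings of this pair were described as immersed under vacuum, so solvent and handling cannot be told apart here. VIP3, VIP4, VIP5, ELF7 and CPL2 were lower in DMSO, 5 of 9 genes, beside 39.5% called and 37% lower among the 14429 genes tested, and none was higher, beside 2.47%. VIP4 had 81.6 in Col-0 and 19.8 in DMSO (4.13-fold lower, adjusted p = 5.16e-08, Fisher's exact test). CPL1 had 16.1 and 15.9, and CPL3 had 19.5 and 23.9. Their windows moved by 90 and 110 bp, so each of these pairs compares different positions. The DMSO table held 3874349 gene body reads against 12224996 in Col-0, and the part of this depth in the differences was not tested.

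The highest window stayed within 25 bp for 9 of 10 genes between the Col-0 and xrn3 tables, beside 77.3% of all genes, and for all 8 between DMSO and herboxidiene, beside 61.6%. CPL3 was the exception in the first pair, with the window centre 35.5 bp before the PAS in Col-0 and 79.5 bp after it in the xrn3 table, while its 3'PI was 19.5 and 21.3. Between Col-0 and DMSO the windows of CPL1, CPL2 and CPL3 moved by 90, 220 and 110 bp. CPL2 was at 54.5 bp in both untreated pools and at 274.5 bp in both treated ones, so its fall of the index from Col-0 to DMSO compares different positions. The annotated CPL2 transcript end lies 99 bp past the PAS used in the tables, and the next gene, on the opposite strand, ends 192 bp from that PAS. For CDC73, CPL3, CPL4 and VIP4 the annotated end lies 323, 104, 88 and 22 bp past the PAS.

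**Figure D2:**
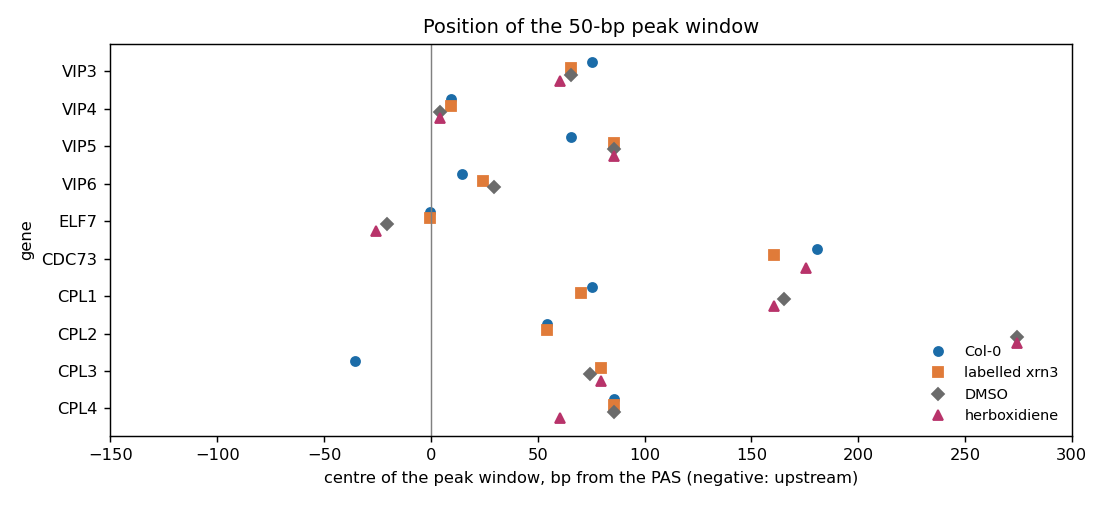
The centre of the highest 50-bp window relative to the PAS (0 bp, vertical line) for each gene and condition. Most windows of a gene lie close together, and those of CPL2 (54.5 and 274.5 bp) and CPL1 (70.5 to 165.5 bp) separate the untreated from the solvent-treated and drug-treated pools.

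Scaled gene body reads after herboxidiene passed 1.5-fold at 2 of 8 genes, both higher, beside 16.2% of genes higher and 23.4% lower. They were ELF7 (190 and 326 reads, scaled log2 0.65 ± 0.13 SE) and CPL4 (17 and 39 reads, scaled log2 1.07 ± 0.42 SE). From Col-0 to DMSO the scaled log2 change was 0.89 for CPL2 and -1.23 for CPL4, so 1 of 9 genes was higher past 1.5-fold, beside 16.3%, and 1 lower, beside 42.5%. Scaled by the median ratio, CPL2, VIP6 and CPL1 passed, 3 of 9 higher, beside 27.3% of all genes. The median over all genes was -0.41 in that pair and -0.09 in the herboxidiene pair. Fold changes of gene body reads carry no test here. TPM, counted by the authors over the gene and 500 bp past its end, did not always follow. CPL1 had a TPM of 11.4 in Col-0 and 34.6 in DMSO while its scaled gene body reads differed by a log2 of only 0.21. The nitrate transporter gene NRT1.8, which overlaps the CPL1 end by 43 bp on the opposite strand, had 53 gene body reads in Col-0, 3224 in DMSO and 2099 in herboxidiene. VIP3, which overlaps MTO2 on the opposite strand, had a TPM of 18.3 in DMSO and 44.4 in herboxidiene with 29 and 38 gene body reads. Whether reads of the neighbours enter these TPM values or the peak windows was not tested.

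Splicing was measured as the splice site (SS) ratio, the intronic reads next to a splice site over the exonic reads there, with both ends of an intron summed. A spliced read can count at both ends, so p-values of the summed counts are too small, and counts from single ends are given with the limits. In total RNA after herboxidiene the summed SS ratio of the gene rose at 9 of the 10 genes, beside 85.5% of the 9663 genes tested (86.7% called), and fell at 0, beside 1.19%. By intron, 56 of 96 changed, beside 60.1%, of which 54 rose, beside 57.1%, and 2 fell, beside 3.03%. The shares of the 10 genes thus lay near those of all genes.

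CDC73 stood out by its starting point. Its 2 introns had 0 intronic reads beside 275 exonic reads in DMSO, and 137 beside 222 in herboxidiene, a ratio of 0.617 (0.495 to 0.767). Against a floor of 3 reads over the pooled gene this was at least 56.6-fold higher (adjusted p = 5.98e-40, Fisher's exact test). Intron 1 reached 0.678 and intron 2 0.548.

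The 4 phosphatase genes rose from ratios of 0.0591 to 0.155 in DMSO to between 0.488 and 0.596. CPL4 rose 9.47-fold, from 0.0591 (31 intronic over 525 exonic reads) to 0.559 (184 over 329), and each of its 7 introns rose. CPL3 rose 6.31-fold to 0.505, with 9 of 11 introns higher. CPL1 rose 5.45-fold to 0.596, with 12 of 16 higher. CPL2 rose 3.15-fold to 0.488, with 6 of 14 higher. In all, 34 of the 48 phosphatase introns rose, beside 57.1% of all introns tested, and none fell, beside 3.03%.

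In the PAF1 complex genes 20 of 48 introns rose, beside 57.1% of all introns tested, and 2 fell, beside 3.03%. Their median ratio in herboxidiene was 0.18, against 0.537 over the phosphatase introns. VIP6 held 23 of these 48 introns. It had 7 of those that rose, the 2 that fell and a median ratio of 0.0638 in herboxidiene. The difference between the groups was not tested. VIP4, the Leo1 homologue, rose 5.16-fold to 0.221. VIP3 rose 3.78-fold, from 0.0690 to 0.261. ELF7 rose 2.56-fold, from 0.127 to 0.326. VIP6 rose least of those called, 2.23-fold, from 0.0416 to 0.0927. VIP5 had 0.250 in DMSO and 0.362 in herboxidiene and did not pass the test (adjusted p = 0.388, Fisher's exact test), on 72 and 58 exonic reads.

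Introns of the same transcript differed widely. In VIP4, introns 1 to 5 and intron 10 rose, to between 0.191 and 0.443, while introns 6 to 9 stayed between 0.0167 and 0.107 in herboxidiene and none of them passed the test. In VIP6, intron 12 rose from 0.0111 (1 intronic read) to 0.50 (adjusted p = 3.58e-08, Fisher's exact test), with 22 intronic beside 44 exonic reads. VIP6 introns 6 and 8 fell instead, from 10 intronic reads to 0 and from 20 to 2, with adjusted p = 0.0267 and 0.0427 by Fisher's exact test. In CPL1 the largest change was at intron 6, from 0.0828 to 1.13, and in CPL4 at intron 6, from 0.0357 to 0.897. CPL3 intron 8 had 0 intronic beside 259 exonic reads in DMSO and 63 beside 106 in herboxidiene, at least 51.3-fold higher. CPL2 intron 14 had as many intronic as exonic reads throughout, with ratios of 1.06 in DMSO, 0.936 in herboxidiene, 0.915 in chromatin-bound RNA of Col-0 and 0.958 in that of the libraries labelled xrn3.

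**Figure D3:**
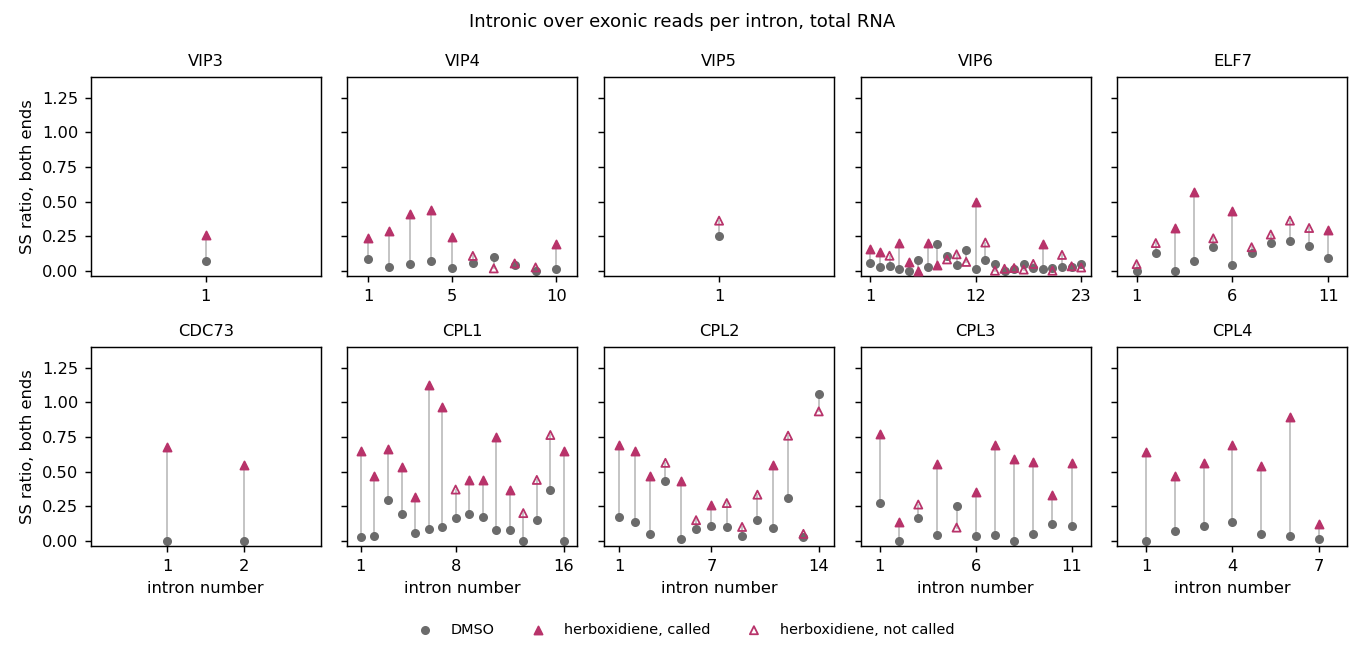
The SS ratio of every intron of the 10 genes in total RNA after DMSO (circles) and herboxidiene (triangles, filled where Fisher's exact test called a change at an adjusted p of 0.05), against intron number. Filled triangles stand above the circles for all 7 CPL4 introns, whereas most of the 23 VIP6 introns stay near 0 in both pools.

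The introns that carry these contrasts are printed whole on the coding strand, chosen after their values were seen. Capitals mark the first and last 2 bases and any CTAAC, or CTAAT, or CTGAC, or CTGAT in the last 60 bases, the letters of a common branch point pattern, searched on the coding strand only. The first 6 rose after herboxidiene, VIP6 intron 6 fell, and CPL2 intron 14 stayed as it was. In the order printed they lie at chr3:8005071-8005171, chr3:8005255-8005359, chr4:11513773-11513898, chr2:14204814-14204901, chr5:23481206-23481293, chr2:2433254-2433360, chr2:2435035-2435130 and chr5:107959-108166.
CDC73 intron 1: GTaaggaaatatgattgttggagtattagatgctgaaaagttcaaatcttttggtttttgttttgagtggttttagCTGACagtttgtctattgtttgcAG
CDC73 intron 2: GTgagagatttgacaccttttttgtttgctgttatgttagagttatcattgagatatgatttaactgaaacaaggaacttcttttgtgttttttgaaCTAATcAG
CPL1 intron 6: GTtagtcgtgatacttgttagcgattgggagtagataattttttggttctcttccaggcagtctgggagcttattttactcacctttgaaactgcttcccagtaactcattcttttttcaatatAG
CPL3 intron 8: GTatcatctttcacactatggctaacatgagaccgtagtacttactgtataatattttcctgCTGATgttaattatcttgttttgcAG
CPL4 intron 6: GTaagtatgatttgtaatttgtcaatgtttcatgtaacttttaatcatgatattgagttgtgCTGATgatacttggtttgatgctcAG
VIP6 intron 12: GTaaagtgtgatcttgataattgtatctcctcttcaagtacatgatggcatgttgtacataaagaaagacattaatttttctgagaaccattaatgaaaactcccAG
VIP6 intron 6: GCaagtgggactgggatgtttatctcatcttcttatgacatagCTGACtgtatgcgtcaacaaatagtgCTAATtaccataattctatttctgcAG
CPL2 intron 14: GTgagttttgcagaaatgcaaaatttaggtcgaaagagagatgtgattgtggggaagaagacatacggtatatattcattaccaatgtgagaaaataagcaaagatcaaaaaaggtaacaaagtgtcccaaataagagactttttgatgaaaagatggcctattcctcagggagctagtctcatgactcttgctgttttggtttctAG

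VIP6 intron 6 begins with GC rather than GT. The pattern was found in 16 of the 54 introns that rose (29.6%), in 19 of the other 42 (45.2%) and in 29.1% of 120471 nuclear introns of at least 60 bases, so the raised introns held it about as often as introns in general. Median thymine content was 40.9% in the raised introns and 40.8% in the others. Median length was 106 and 99.5 bases. Over the 96 introns, which share libraries and genes, Spearman's rho between length and the change of the ratio was -0.10. Over the 73 introns left without VIP6 it was 0.06.

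Exonic reads next to splice sites fell past 1.5-fold at 3 of the 10 genes after herboxidiene, beside 12% of genes, and rose past it at 0, beside 6.72%. All 3 were phosphatases. CPL2 went from 2582 to 703 reads (scaled log2 -1.48 ± 0.06 SE), CPL3 from 1899 to 719 (-1.0 ± 0.06) and CPL1 from 2123 to 816 (-0.98 ± 0.06). In the same treatment their scaled gene body reads of Ser2P Pol II changed by log2 values of 0.18, -0.14 and 0.38. CPL4 had a scaled log2 change of exonic reads of -0.27, and the PAF1 complex genes lay between -0.56 (ELF7) and 0.09 (CDC73 and VIP5). In bulk tissue fewer cells with the RNA and less RNA per cell cannot be told apart.

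**Figure D4:**
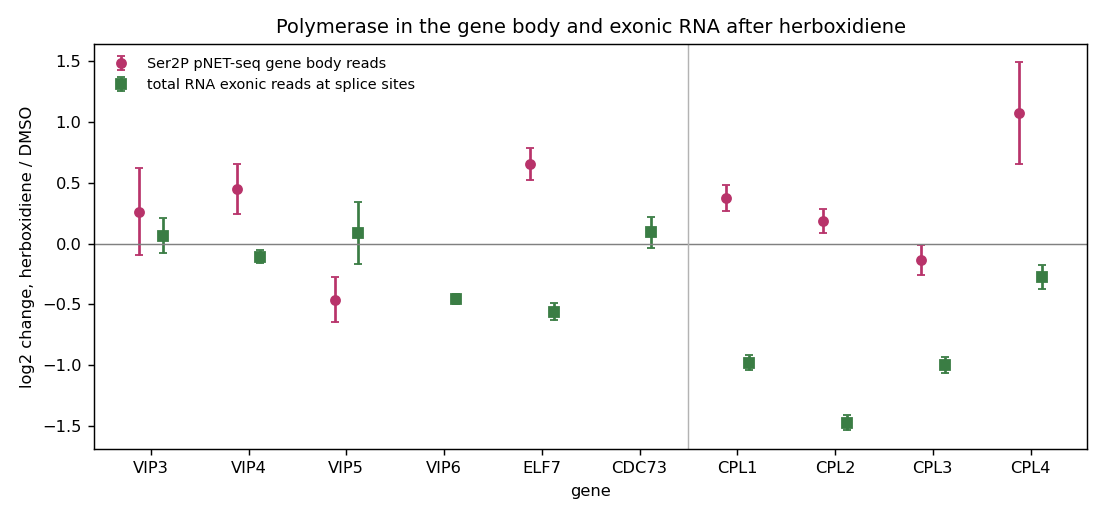
The log2 change from DMSO to herboxidiene of Ser2P pNET-seq gene body reads (circles) and of total RNA exonic reads at splice sites (squares), with the standard error from counting; VIP6 and CDC73 have no pNET-seq point because they were listed in only 1 of the 2 conditions. CPL1, CPL2 and CPL3 have exonic changes of -0.98, -1.48 and -1.0 beside gene body changes of 0.38, 0.18 and -0.14.

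On chromatin, the comparison of xrn3 with Col-0 asks about splicing of RNA in the chromatin fraction, which was not selected for Pol II. The summed ratio fell at 6 of the 10 genes (ELF7, VIP6, CPL3, CPL1, CPL4 and VIP4), beside 50.3% of the 15099 genes tested (51.6% called), and rose at 0, beside 1.28%. ELF7 fell most, 1.59-fold, from 0.291 (0.262 to 0.322) to 0.183 (0.162 to 0.207), with adjusted p = 4.57e-08 by Fisher's exact test. CPL4 fell 1.54-fold, from 0.327 to 0.213, and VIP4 1.5-fold, from 0.295 to 0.197. VIP6 fell 1.3-fold, from 0.154 to 0.118, on 10875 and 10443 exonic reads, the deepest of the set. CDC73 had the opposite sign, 0.104 and 0.23, from 13 and 26 intronic reads, and did not pass the test (adjusted p = 0.0687, Fisher's exact test). Exonic reads on chromatin passed 1.5-fold at 0 of the 10 genes, beside 5.55% higher and 5.02% lower.

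By intron, 23 of 96 changed, beside 21.7% of the 94659 introns tested. Of these 22 fell, beside 19.8%, and 1 rose, beside 1.92%. The riser was CPL2 intron 9, from 0.0347 to 0.16 (5 and 25 intronic reads, adjusted p = 0.00754, Fisher's exact test). VIP6 introns 12 and 13, which are adjacent, fell from 0.303 to 0.0536 and from 0.345 to 0.109. CPL1 introns 10 and 11, also adjacent, fell from 0.286 to 0.0119 and from 0.229 to 0.0233, and CPL2 intron 11 from 0.554 to 0.0870. ELF7 introns 1 and 2 fell in ratio and also lost exonic reads, from 92 to 36 and from 128 to 61, while its introns 4 to 6 gained them (64 to 91, 86 to 119 and 129 to 194).

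**Figure D5:**
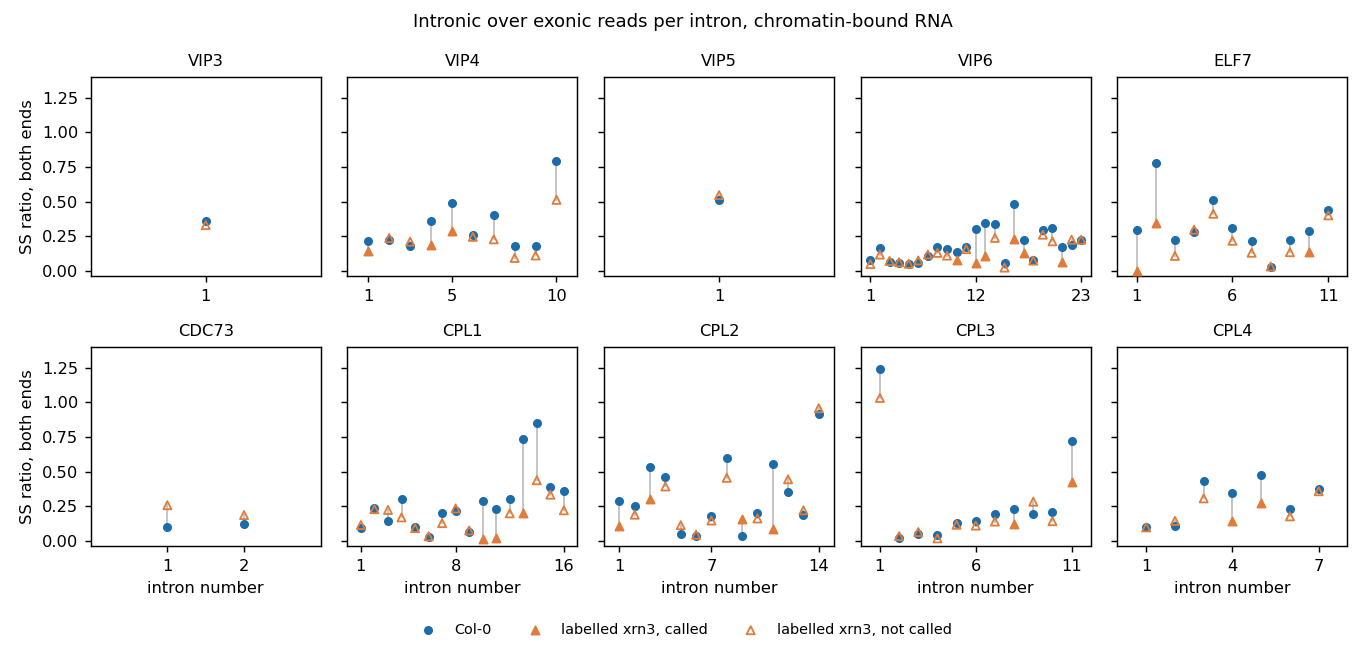
The SS ratio of every intron in chromatin-bound RNA of Col-0 (circles) and of the libraries labelled xrn3 (triangles, filled where Fisher's exact test called a change at an adjusted p of 0.05). CPL3 intron 1 stands above the other CPL3 introns in both pools, at 1.24 and 1.03.

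CPL3 intron 1 had the highest ratio of all 96 introns in Col-0 chromatin, 1.24, from 691 intronic and 557 exonic reads, and 0.275 in total RNA of DMSO seedlings. Its sequence, at chr2:14208050-14208174, is printed because of this value and carries a run of thymines before the AG.
CPL3 intron 1: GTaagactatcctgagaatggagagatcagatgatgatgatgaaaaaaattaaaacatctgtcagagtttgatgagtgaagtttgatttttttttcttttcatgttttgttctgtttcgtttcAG
The ends of an intron also differed. The VIP5 intron on Col-0 chromatin had 0.815 at its 5' splice site and 0.136 at its 3' splice site, and the VIP3 intron 0.0843 and 0.539. Ratios by gene were higher on chromatin of Col-0 than in total RNA of DMSO seedlings at each of the 10 genes. They ranged from 0.154 (VIP6) against 0.0416 up to 0.510 (VIP5) against 0.250 for the PAF1 complex genes other than CDC73, which had 0.104 against 0. These libraries differ in treatment as well as in RNA fraction, so this was not tested.

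Other genes of the pathway were described by counts. All of 9 genes for kinases or cyclins linked to CTD phosphorylation were tested in the xrn3 comparison. CDKC;2, CYCT1;4 and CYCT1;5 had a raised 3'PI, by 2.52-fold, 1.86-fold and 1.81-fold, beside 11.3% of all genes higher. These encode subunits of the P-TEFb-like kinase that acts on serine 2. The CDKC;2 window was centred at -124.5 bp from the PAS, upstream of it, in both pools. That of CYCT1;5 moved from 244.5 bp past the PAS in Col-0 to 214.5 bp in the libraries labelled xrn3. CDKC;1 was 1.6-fold higher and did not pass the test (adjusted p = 0.0543, Fisher's exact test). None of 5 H2B ubiquitination genes (UBC1, UBC2, UBC3, HUB1 and HUB2) changed in 3'PI there, and of 6 floral repressors MAF3 rose, 1.41-fold. The MAF3 window moved by 70 bp between these pools, so its values compare different positions. After herboxidiene 12 of the 22 pathway genes were listed in both tables, of which CDKC;1, FLM and MAF2 fell, beside 16.6% of all genes, and 0 rose. The fall of MAF2 was from 40.7 to 3.56, with 48 and 5 window reads. Summed SS ratios in total RNA rose at 8 of the 10 pathway genes tested, beside 85.5% of all genes. FLM and MAF2 did not pass that test, at 0.99-fold and 1.24-fold. On chromatin of the libraries labelled xrn3 the summed ratios fell at 14 of 20 pathway genes, beside 50.3%.

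The genes whose 3'PI over the 4 conditions was most like the median of the 8 genes listed in every condition (23.9, 30.6, 16.5 and 7.14 in Col-0, xrn3, DMSO and herboxidiene) were AT3G14100, PBS1 and SR1. Likeness was the Euclidean distance of log2 values, at 0.179, 0.185 and 0.219 among 3568 candidates, each of which had 100 or more gene body reads throughout.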

How the data were processed

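The members and the gene lists were chosen with earlier results of these data known. Reads were trimmed (Trimmomatic 0.39 per the labels' processing notes for RNA-seq), mapped to TAIR10 with HISAT2 2.2.0 and kept if unique, and each deposited table pools the libraries of a condition. The gene body and peak window values are counts that the authors deposited without normalization, and so are the exonic and intronic read counts per splice site. The TPM values were computed by the authors over genes extended by 500 bp. The 3'PI is a ratio of read densities that the authors deposited, and recomputing it from the deposited counts gave the same values. The deposited p-value and q-value columns hold the authors' own pause test and were not used. An intron table of Col-0 without an assay in its name was not used here.

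Python 3.11.15 with scipy 1.17.1, numpy 2.4.6, pandas 2.3.3 and matplotlib 3.10.9 was used. Peak window against gene body reads, and intronic against exonic reads, were compared by two-sided Fisher's exact tests with Benjamini-Hochberg adjustment over all nuclear genes or introns with reads in both tables, at 0.05. Intervals are exact, at 95%. Standard errors of log2 changes are from counting. Gene body and exonic reads were scaled to their totals over shared genes. Zero counts were set to a floor of 3 for bounds. All 10 genes are named. Of introns, the largest and smallest changes per gene and the highest control ratios were named by rule, and others were chosen after their values were seen. The tests were checked on simulated counts without variation between libraries, so that check cannot speak to the pooling of libraries. Alternatives were a threshold of 0.01, a minimum of 1.5-fold, minimum reads of 20 (gene body) or 10 (exonic), windows within 25 bp, single splice sites and median-ratio scaling.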

Additional observations from a re-analysis of the deposited data

How the results depend on the processing

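Of the alternative values, 39 stayed within the limits set for them and 8 moved, and none reversed. The single 3'PI call in the xrn3 comparison (CPL2) became 0 at a threshold of 0.01 and 0 with a minimum of 1.5-fold. The 23 changed introns on chromatin became 12 at 0.01, 8 from the 5' splice site alone and 9 from the 3' splice site alone, and the 6 changed genes there became 2 with a minimum of 1.5-fold. The median scaled log2 change of gene body reads from Col-0 to DMSO was 0.10, and 0.51 when scaled by the median ratio, as the median over all genes was itself -0.41. Under that scaling, added after seeing the data for counts, the genes higher past 1.5-fold in this pair went from 1 to 3. The 4 3'PI calls after herboxidiene ranged from 3 to 4, and the 56 changed introns in total RNA from 43 to 56. No paired analysis was possible because the tables used here pool the libraries of each condition, so no library was left out either. Values per library were not analysed here. Depth limits the pNET-seq values after DMSO and herboxidiene most, where 6 to 67 window reads stand behind each 3'PI of the 10 genes.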
